A study of Drosophila melanogaster with 16 samples.

Results

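Hearts of a precise-excision control line, WtPE, were compared with hearts of the wild-type strain Canton-S, WtCS. Both lines serve as genetic background controls in a study of potassium channel mutants of Drosophila melanogaster, WtPE for KCNQ mutants and WtCS for sei mutants, so the comparison asks how far the baselines themselves differ. It used the 3 WtPE and 5 WtCS arrays of 16 arrays in all, and every one of the 18952 probesets of the platform except 183 platform controls, which left 18769. A probeset is the group of short probes that reads 1 transcript. WtPE, labelled KCNQ97, is a line of w1118 flies from which a P element had been excised precisely from the KCNQ locus, and is a single excision line. WtCS is the Canton-S stock and carries no named allele. The KCNQ mutant arrays (n = 3, labelled KCNQ37, named KCNQ370 in the methods) hold an imprecise excision of the same element with a stop codon. The sei mutant arrays (n = 5, allele seits1) hold a chemically induced stop codon in the channel that is the fly homolog of hERG. All flies were untreated and 3 weeks old, and each array read RNA pooled from 30 hearts from which fat and tracheae had been sucked away. Flies were kept apart by sex, and the sex of the pooled flies is not given in the sources used here.

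The adult fly heart is a muscular tube along the back of the abdomen. It is wrapped in a basement membrane and flanked by pericardial nephrocytes, cells that filter the hemolymph, with fat body, tracheae, hemocytes and nerve endings close by. Inbred laboratory strains carry different alleles at many loci, among them detoxification genes, odorant-binding protein genes and immune genes, which are known to vary between Drosophila stocks. An array compares strains through probes designed on a reference genome, so a base difference under a probe could alter a signal as well as a change in RNA. Its part in the values below was not tested. In pooled hearts, fewer cells of a type and less RNA per cell cannot be told apart.

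The deposited values were intensities normalized by RMA, a method that removes background, equalizes arrays and sums the probes of a set. Their log2 was taken, so that a difference of 1 is a doubling. Median intensity per array ran between 10.2 and 11 in WtPE and between 10.4 and 11.2 in WtCS. Array names place the WtPE arrays in run A, together with WtCS replicates 4 and 5, while WtCS replicates 1 and 2 form run B and WtCS replicate 3 belongs to run C. Over all probesets, WtPE arrays correlated with each other at 0.974 to 0.988 and WtCS arrays at 0.956 to 0.982. Between the lines the correlation was 0.947 to 0.951 within run A, 0.964 to 0.968 against run B and 0.955 to 0.957 against WtCS replicate 3, so WtPE was least like the WtCS arrays of its own run. WtCS replicates 2 and 3 carry the same sample code, and correlated at 0.959, no higher than other WtCS pairs. Of the genes that mark the genotypes, w and KCNQ were not analysed here, so these genotypes were not checked against expression. The sei gene measured 5.66, 5.45 and 6.08 in WtPE and 5.31, 5.84, 5.94, 6.03 and 5.75 in WtCS, and did not pass the test (log2 difference -0.04 ± 0.29, SE; limma adjusted p = 0.983). The heart gene Hand averaged 12.24 in WtPE and 12.18 in WtCS, so both sets of hearts carried it at a high level. It was 1 of 10 measured heart muscle markers, of which 7 had a lower WtPE mean. Others were dimmer, such as mid (4.67 in WtPE and 5.01 in WtCS) and H15 (5.71 and 6.52).

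limma, fitted to all 16 arrays with Benjamini-Hochberg adjustment, called 689 probesets different between WtPE and WtCS at an adjusted p under 0.05, which is 3.67% of those tested. Of these, 350 were higher in WtPE (1.86%) and 339 were lower (1.81%). The median size of a called difference was 1.43 on the log2 scale. A rise of 1 or more was seen in 292 and a fall of 1 or more in 270, while 7 rose by 5 or more and 4 fell by 5 or more. WtPE and WtCS arrays did not overlap in 666 of the 689, against 10.6% of all probesets. The called probesets named 594 genes, 64 of them had no gene symbol in the annotation and 13 had several. One unnamed probeset, singled out after its values were seen, held the largest fall of all, to 4.02, 4.24 and 4.00 in WtPE against 11.70, 11.25, 11.44, 12.26 and 12.01 in WtCS. The number of calls depended on single arrays: it was 374 without WtPE replicate 1 and 322 without WtPE replicate 2, and 242 of the 689 were called with each of the 8 arrays left out in turn.

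The number of calls also depended on which of the other arrays were fitted beside WtPE. Within run A, 577 of the 689 were called in the same direction, and against the WtCS arrays of run B, which came from another run than WtPE, 326 were. All 689 kept their sign in both. The same WtPE arrays enter both comparisons, and the 689 were chosen by a fit that held all these arrays, so kept signs are no independent test. The fit of run A alone called 2376 probesets in all, the fit with run as a covariate called 3606, of which 667 were among the 689, and the fit against run B called 524. A fold over 2 with an unadjusted p under 0.05 was met by 1243 probesets (6.62%). Called in the fit of all arrays, within run A and against run B were 287 probesets (1.53% of those tested), 143 higher and 144 lower in WtPE. Below, a gene is said to pass in both runs when its probeset is 1 of these 287, a set that was defined after the data had been seen. Of the 2 lines compared, only the WtCS arrays change, so passing in both runs is no repeat of the WtPE measurement. The mutant arrays that enter the estimate of spread change as well. The run A fit left out sei replicates 1, 2 and 3 (6 residual degrees of freedom), and the fit against run B kept them (9), so the counts differ in more than the WtCS arrays.

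**Figure D1:**
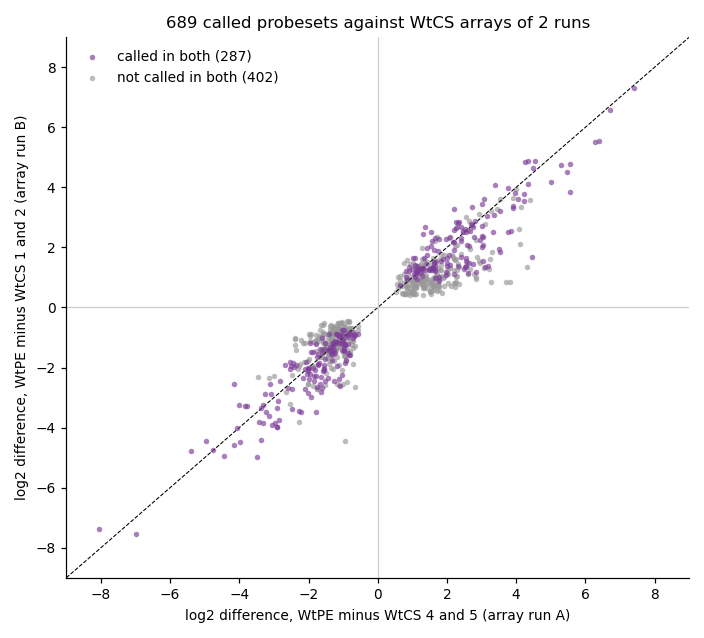
Log2 difference between WtPE and WtCS for the 689 called probesets, against the WtCS arrays of run A (horizontal axis, replicates 4 and 5) and of run B (vertical axis, replicates 1 and 2); purple points are the 287 called against both and grey points the other 402. Every point lies in the lower left or the upper right of the plot, and the dashed line marks equal differences. Both axes use the same WtPE arrays, and the points were chosen by a fit that held all arrays shown. The shared signs are therefore no test of agreement between runs.

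Among called probesets with 1 gene symbol and no overlap between the lines, the 12 largest rises included genes of the cytoskeleton, of lipid handling and of the basement membrane, several of which sat near the bottom of the scale in every Canton-S array. Map205, which codes for a microtubule-associated protein, measured 9.45, 9.41 and 9.10 in WtPE and 2.74, 1.27, 1.04, 1.94 and 1.86 in WtCS. That is a rise of 7.55 ± 0.37 (log2, SE), or 188-fold, with an adjusted p of 8.53e-09 by limma. CG43085 measured 9.03, 8.81 and 10.17 in WtPE and 2.06, 3.48, 2.99, 1.93 and 3.34 in WtCS, a rise of 6.58 ± 0.41 (limma adjusted p = 9.74e-08). The groups were several log2 units apart in both genes.

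Acbp2, which codes for an acyl-CoA binding protein that carries activated fatty acids, stood among the brightest signals in WtPE, at 12.36, 12.50 and 12.45, against 6.48, 7.37, 5.77, 6.39 and 5.93 in WtCS. The rise was 6.05 ± 0.29, or 66.3-fold (limma adjusted p = 8.53e-09). Elovl7, a fatty acid elongase, measured 8.18, 8.06 and 8.97 in WtPE and 5.96, 1.37, 1.63, 3.63 and 2.59 in WtCS (5.37 ± 0.71, limma adjusted p = 0.00029). The WtCS arrays were widely scattered for Elovl7, with replicate 1 the nearest to WtPE. Lack of overlap was a condition for being listed here.

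The laminin alpha chain wb, a basement membrane protein, measured 9.05, 8.67 and 9.02 in WtPE and 4.46, 3.79, 3.65, 3.74 and 2.96 in WtCS (5.19 ± 0.31, limma adjusted p = 7.2e-08). Its other probesets were dim in both lines and did not pass (limma adjusted p = 0.563 and 0.418). The SKI and SNO family gene fuss rose to 10.39, 10.33 and 10.59 in WtPE, against 5.67, 6.16, 5.41, 4.45 and 5.47 in WtCS (5.00 ± 0.28). Arpc1, a subunit of the Arp2/3 complex that branches actin filaments, measured 8.80, 8.75 and 8.96 in WtPE and 5.46, 3.86, 3.51, 4.42 and 3.26 in WtCS (4.74 ± 0.38). For the insulator protein gene CTCF, 2 of 3 probesets rose, by 4.73 ± 0.54 and 4.46 ± 0.43, while the third, the brightest in WtCS at a mean of 6.12, was 0.50 ± 0.40 higher in WtPE and did not pass (limma adjusted p = 0.691). The probesets of CTCF thus gave different answers for 1 gene. TkR99D, a receptor for tachykinin peptides, measured 5.83, 6.25 and 5.83 in WtPE and lay between 1.13 and 1.72 in WtCS. CG4650 and CG34217 rose by 5.74 ± 0.52 and 4.26 ± 0.38.

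Of the 12 largest falls, 3 were of chemosensory genes. Obp57a, which codes for an odorant-binding protein, fell to 3.51, 3.28 and 2.79 in WtPE, against 10.88, 10.58, 9.70, 10.53 and 9.82 in WtCS (-7.11 ± 0.36, or 138-fold, limma adjusted p = 1.24e-08). Obp99b, of the same family, measured 6.43, 6.96 and 6.19 in WtPE and 11.24, 11.28, 12.62, 11.27 and 11.31 in WtCS (-5.02 ± 0.47). The ionotropic receptor gene Ir76a measured 3.03, 2.98 and 3.32 in WtPE and 6.96, 6.88, 7.15, 6.70 and 6.38 in WtCS (-3.70 ± 0.28). All 3 were close to the low end of the scale or far below the Canton-S level in every WtPE array.

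CG11854 measured 4.74, 2.63 and 2.21 in WtPE and 8.22, 7.74, 8.81, 9.13 and 8.08 in WtCS (-5.20 ± 0.58). CG31760 and CG33458 fell by 4.53 ± 0.40 and 4.37 ± 0.50 on the log2 scale. The eggshell gene yellow-g measured 3.20, 3.31 and 4.11 in WtPE and 8.75, 8.28, 7.99, 7.39 and 6.65 in WtCS (-4.27 ± 0.60). Cyp9c1, a cytochrome P450, measured 3.71, 4.01 and 4.48 in WtPE and 7.12, 7.55, 8.45, 7.94 and 7.85 in WtCS (-3.71 ± 0.30). CG6012 and CG30289 fell by 3.77 ± 0.49 and 3.69 ± 0.39. Each of these 24 probesets, the 12 largest rises and falls among called probesets with 1 symbol and no overlap, passed in both runs and was called with any one of the 8 arrays left out. They were chosen for large differences without overlap in these same arrays, so this gives no independent support.

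A pair of falls belonged to neighbouring genes. The non-coding RNA gene lncRNA:CR42862 measured 8.49, 7.23 and 6.52 in WtPE and 11.93, 11.80, 11.75, 12.46 and 12.32 in WtCS (-4.64 ± 0.34, limma adjusted p = 5.24e-07), and its 2 other probesets were called lower as well. CG33229, next to it on arm 3L, measured 5.89, 6.10 and 6.29 in WtPE and 10.68, 10.44, 9.42, 9.93 and 10.20 in WtCS (-4.04 ± 0.27, limma adjusted p = 2.67e-07). The neighbour on the far side, CG42846, named after its values were seen, was lower too (-1.48 ± 0.27). By their means, these were also the only 2 of the 24 in which both mutants lay closer to WtCS than to WtPE: lncRNA:CR42862 measured 11.53, 11.15 and 11.68 in KCNQ mutants and between 11.05 and 11.77 in sei mutants.

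**Figure D2:**
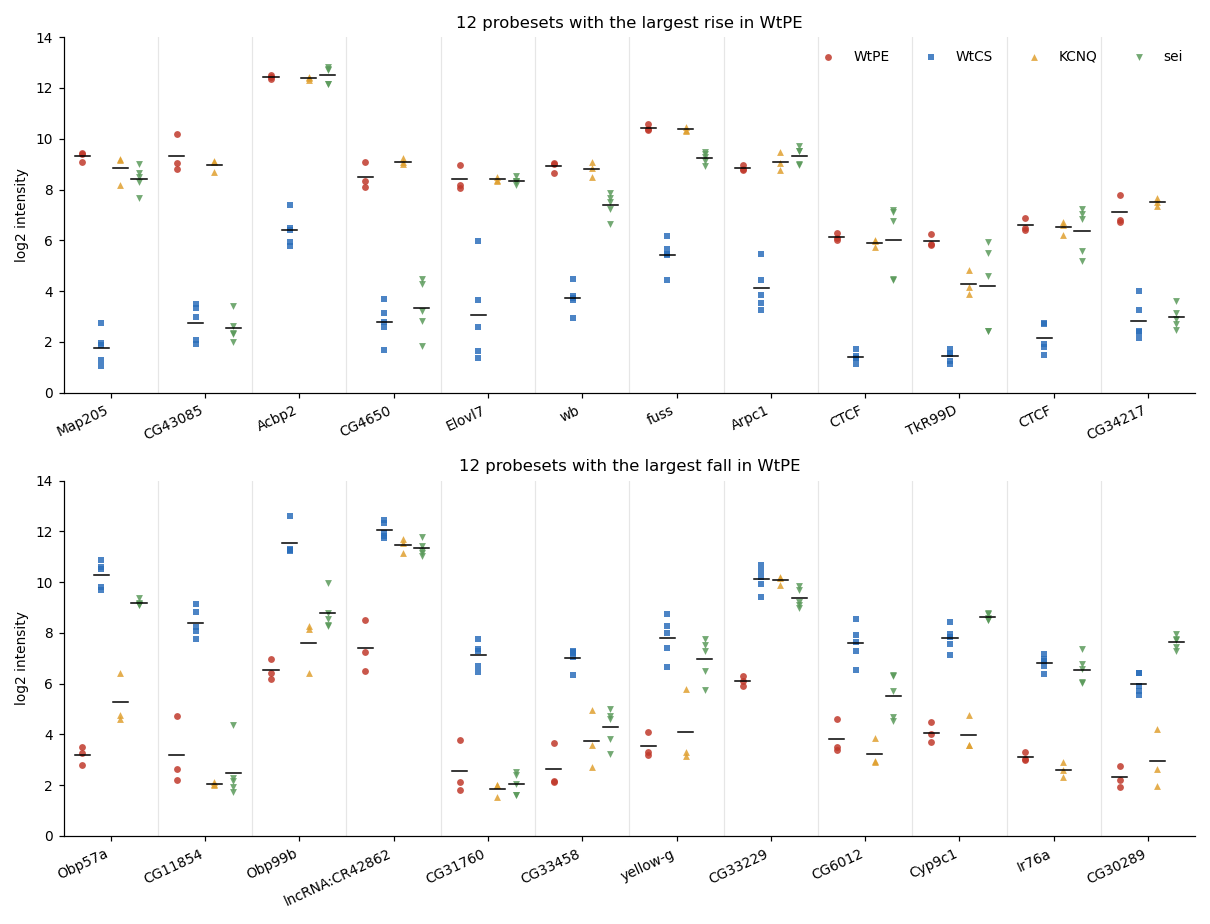
Log2 intensity on every array for the 12 probesets with the largest rise (upper panel) and the 12 with the largest fall (lower panel) in WtPE against WtCS, with KCNQ and sei mutants beside them; each point is an array of 30 hearts and each black bar a group mean. By the rule of choice, WtPE and WtCS do not overlap in any of the 24. The mutants sit with WtPE, with WtCS or between them depending on the gene, and CTCF appears with 2 probesets.

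The mutant lines placed the control difference. A mutant mean was assigned to WtPE or WtCS by the side of the midpoint between the control means on which it fell, a description with no test. For 354 of the 689 (51.4%), the KCNQ mean lay on the WtPE side and the sei mean on the WtCS side, each mutant with its own control. For 255 (37.0%) both mutants lay on the WtPE side, and for 53 (7.69%) both lay on the WtCS side. A mean on 1 side can still lie between the controls: Obp99b averaged 8.78 in sei mutants, 6.52 in WtPE and 11.54 in WtCS. The reverse, with each mutant on the side of the other control, was seen in 27 (3.92%). Of the 12 largest rises, 9 had both mutants on the WtPE side. Map205 lay between 8.19 and 9.21 in KCNQ mutants and between 7.68 and 9.01 in sei mutants, and Acbp2 between 12.33 and 12.43 in KCNQ mutants and between 12.14 and 12.81 in sei mutants, both far above the Canton-S level. In the other 3 rises (CG43085, CG4650 and CG34217) the sei mutants lay at the WtCS level: CG43085 measured 9.07, 8.70 and 9.12 in KCNQ mutants and 3.42, 2.62, 2.30, 2.35 and 2.01 in sei mutants. Of the 12 largest falls, 5 followed the background in this way (Obp57a, yellow-g, Cyp9c1, Ir76a and CG30289), 5 had both mutants on the WtPE side, and 2 had both on the WtCS side.

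A contrast of KCNQ with sei mutants uses none of the 8 control arrays, although it shares the estimate of spread. Its layout over runs resembles that of the controls. All KCNQ arrays belong to run A, as do sei replicates 4 and 5, while sei replicates 1, 2 and 3 belong to run C. The part of run in the shared calls was not tested. It called 1669 probesets (8.89% of those tested), 865 higher and 804 lower in KCNQ. Of the 689 control differences, 276 were called there in the same direction, which is 40.1% of the control calls and 16.5% of the mutant calls. Another 25 were called in the opposite direction (3.63% and 1.5%), and 388 were not called. Ir76a, for example, differed by -3.95 on the log2 scale between KCNQ and sei mutants, beside -3.70 between WtPE and WtCS, and Map205 by 0.43, beside 7.55. The mutant count fell to 683 without KCNQ replicate 1, to 750 without KCNQ replicate 2, to 703 without KCNQ replicate 3, to 1096 without sei replicate 1 and to 1065 without sei replicate 2. The shared count was 151, 133 and 151 without WtPE replicate 1, 2 and 3 and 153, 159 and 168 without KCNQ replicate 1, 2 and 3.

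**Figure D3:**
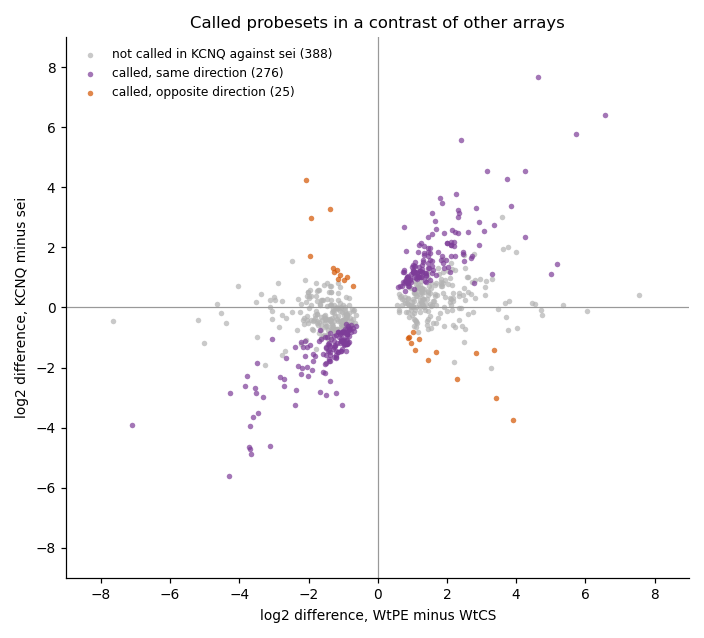
Log2 difference between KCNQ and sei mutants (vertical axis) against the log2 difference between WtPE and WtCS (horizontal axis) for the 689 called probesets; purple points are the 276 also called between the mutants in the same direction, orange points the 25 called in the opposite direction and grey points the 388 not called. The grey points far from the centre along the horizontal axis differed between the controls and were not called between the mutants. Not being called does not show that the mutants were alike: Map205 differed by 0.43 between them and Obp99b by -1.17.

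For gene lists, each gene was counted once, by its brightest probeset. Over all 11982 genes with a symbol, 288 were called higher (2.4%) and 280 lower (2.34%) in WtPE, 4.74% in either direction, and the median log2 difference was -0.03. The cytochrome P450s had 14 called members, lipid genes and odorant-binding proteins 6 each, and every other list 5 or fewer. Cytosolic ribosomal proteins (41 genes), sarcomere proteins (25), glycolysis (18), eye pigment genes (15), antimicrobial peptides (12), insulin and TOR signalling (12), the circadian clock (11) and heat shock proteins (10) had no called member. The counts depended on the arrays used. Within run A, 15.2% of all genes were called, 1142 higher and 674 lower, and with run as a covariate 22.1%, 1547 higher and 1107 lower, so that higher calls outnumbered lower ones in both of these fits. Lists with few or no calls over all arrays then held some: within run A, 15 mitochondrial ribosomal protein genes were higher and 3 lower, 7 fatty acid oxidation genes were higher and 3 lower, 7 neprilysins were higher, and 2 heat shock protein genes were higher and 4 lower.

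**Figure D4:**
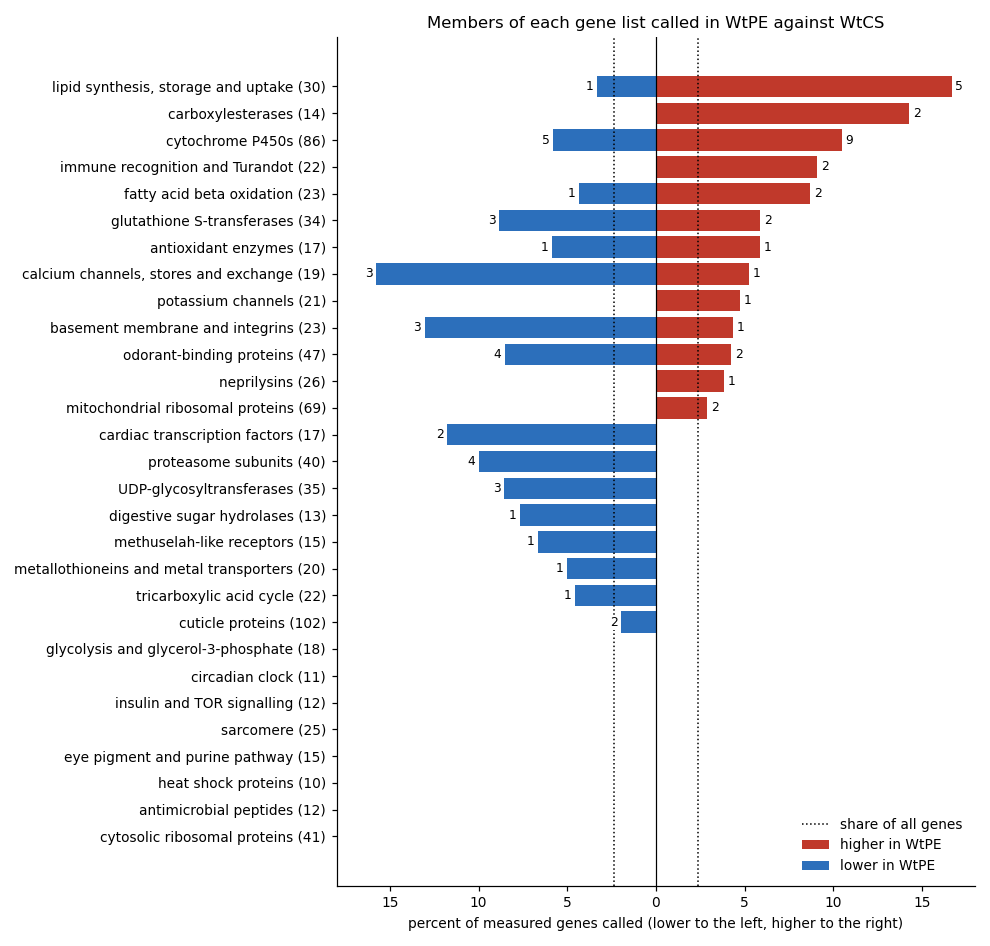
Percent of the measured genes of each list that were called higher (red, to the right) or lower (blue, to the left) in WtPE against WtCS, with the number called at the bar end and the number measured in brackets; dotted lines mark the shares over all genes, 2.4% higher and 2.34% lower. Lipid genes, carboxylesterases and cytochrome P450s reach furthest to the right, calcium handling and basement membrane genes furthest to the left, on between 2 and 9 genes each.

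Enzymes that process foreign compounds made up the longest run of named calls. Of 86 cytochrome P450s, the enzymes that oxidize insecticides, plant toxins and hormones, 9 were higher and 5 lower in WtPE, 8 of them in both runs, and the median over the family was 0.16. Within run A, 20 were higher and 4 lower. Cyp309a2 rose to 6.30, 7.06 and 6.79 in WtPE, against 2.93, 2.92, 4.26, 2.61 and 2.36 in WtCS (3.70 ± 0.33, limma adjusted p = 4.79e-06). Cyp6a2, which is known for its link to insecticide resistance, measured 5.30, 5.69 and 6.32 in WtPE and 3.13, 1.99, 2.52, 2.64 and 1.80 in WtCS (3.35 ± 0.31, limma adjusted p = 5.42e-06). Both were near the low end of the scale in Canton-S and clearly above it in all WtPE arrays. The other rises were Cyp4d1 (2.44), Cyp6a8 (2.16), Cyp4s3 (2.15), Cyp12b2 (1.42), Cyp6a21 (1.07), Cyp4ac3 (1.02) and Cyp12a5 (0.88), and the other falls, beside Cyp9c1, were Cyp305a1 (-1.51), Cyp4e3 (-1.38), Cyp6g2 (-0.99) and Cyp12e1 (-0.74). These further members are named to complete the count. The calls of Cyp6a21 and Cyp4ac3 were lost without WtPE replicate 1 or 2, that of Cyp4s3 without WtPE replicate 2 or 3, that of Cyp305a1 without any WtPE array or WtCS replicate 4, and those of Cyp12a5, Cyp4e3, Cyp6g2 and Cyp12e1 without any of 5 or 6 of the 8 arrays.

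Other detoxification families held fewer calls. Of 34 glutathione S-transferases, 2 rose and 3 fell, with a median of -0.10. GstE6 measured 8.94, 9.0 and 9.70 in WtPE and 6.29, 7.01, 6.17, 6.69 and 6.41 in WtCS (2.70 ± 0.24, limma adjusted p = 4.78e-06) and passed in both runs. Its neighbour GstE5 moved the other way, to 2.61, 2.29 and 2.59 in WtPE against 3.41, 3.18, 3.32, 3.88 and 3.66 in WtCS (-1.0 ± 0.22, limma adjusted p = 0.0165), and its call was lost without WtPE replicate 1 or 2, as was that of GstT2 (0.76). GstE1 and GstE3 fell by 1.04 ± 0.27 and 0.90 ± 0.22, and lost their calls without most single arrays, GstE1 without any but WtCS replicate 1. Of 35 UDP-glycosyltransferases, which attach sugars to lipophilic compounds, 3 were lower and none higher, and none passed in both runs. Ugt49C1 and Ugt36E1 fell by 1.75 ± 0.34 and 1.52 ± 0.29, and Ugt317A1 by 1.21 ± 0.29. Without WtPE replicate 2 the adjusted p of Ugt49C1 was 0.059, and Ugt317A1 lost its call without WtPE replicate 1 or 3 or WtCS replicate 2. Of 14 carboxylesterases, alpha-Est9 (1.04 ± 0.26) and alpha-Est2 (0.95 ± 0.25) were higher, with calls lost without any of 6 and 7 of the 8 arrays. The antioxidant enzymes divided: Prx6c, a peroxiredoxin, measured 4.92, 4.87 and 4.63 in WtPE and 8.05, 7.79, 8.42, 7.59 and 7.78 in WtCS (-3.12 ± 0.25, limma adjusted p = 1.8e-06, both runs), while Gclm, a subunit of the enzyme that starts glutathione synthesis, was 0.90 ± 0.19 higher and lost its call without WtPE replicate 2 or 3.

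The basement membrane, the sheet of laminin, collagen IV, perlecan and nidogen around the heart tube, showed a difference in its laminins. A laminin is a trimer of an alpha, a beta and a gamma chain, and Drosophila has 2 alpha chain genes. The alpha chain wb was far higher in WtPE, as given above. The other alpha chain, LanA, was lower, at 7.57, 7.39 and 6.67 in WtPE against 9.18, 8.84, 9.64, 9.88 and 9.60 in WtCS (-2.22 ± 0.29, or 4.67-fold, limma adjusted p = 0.000286, both runs). The gamma chain LanB2 measured 8.31, 8.07 and 7.67 in WtPE and 9.10, 8.93, 9.43, 9.34 and 9.32 in WtCS (-1.21 ± 0.21, limma adjusted p = 0.00306). By these probesets, the 2 alpha chains differed in opposite directions, with no overlap between the groups in either. Of all probesets, 10.6% had no overlap, and for wb it was a condition of being listed. The other probesets of wb, dim in both lines, did not pass. The collagen IV chain vkg fell by 0.88 ± 0.21 and lost its call without WtPE replicate 2 or 3. The second collagen IV chain Col4a1 (-1.09 ± 0.30, limma adjusted p = 0.057), the beta chain LanB1 (-0.92 ± 0.45), perlecan trol (-1.24 ± 0.37) and nidogen Ndg (-0.83 ± 0.29) had lower WtPE means and did not pass. Over the 23 measured genes of the list, 1 was higher and 3 were lower, and 14 had a lower WtPE mean (60.9%, beside 52.5% of all genes), with a median of -0.37. Integrins, the receptors that hold cells to laminin, had no called member: if measured 0.78 ± 0.43 and mys 0.36 ± 0.32 higher, and scb 0.90 ± 0.41 lower in WtPE. LanA and LanB2 also differed between the mutants, by -1.14 and -1.66 for KCNQ minus sei (limma adjusted p = 0.024 and 0.00013). Hemocytes are known to secrete collagen IV and laminin. Of their 8 markers, Hml was called lower and NimC1 higher in WtPE, as given below, and their part in the laminin values was not tested.

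**Figure D5:**
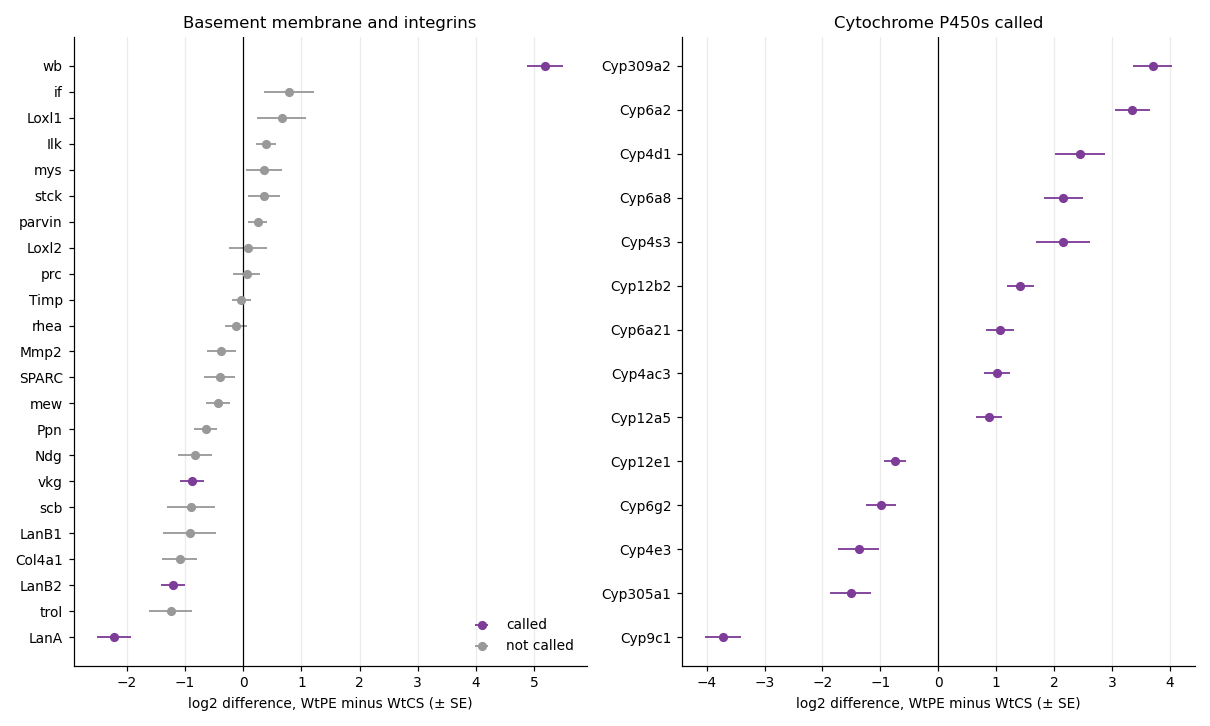
Log2 difference between WtPE and WtCS with its standard error for the 23 measured genes of the basement membrane and integrin list (left) and for the 14 called cytochrome P450s (right); purple points passed the test and grey points did not. The laminin alpha chain wb stands at 5.19 and the other alpha chain LanA at -2.22, and the P450s run between Cyp309a2 at 3.70 and Cyp9c1 at -3.71.

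Lipid genes held 5 rises and 1 fall among 30 measured, with a median of 0.07. Beside Acbp2 and Elovl7, Acbp6, a further acyl-CoA binding protein gene, measured 6.99, 9.57 and 5.40 in WtPE and 4.19, 2.56, 4.50, 2.55 and 4.09 in WtCS (3.74 ± 0.84, limma adjusted p = 0.0196). It varied by over 4 log2 units between the WtPE arrays, and its call was lost without WtPE replicate 1 or 2 or WtCS replicate 4. The lipase gene Lip4 (0.96 ± 0.19) passed in both runs. AkhR, the receptor for adipokinetic hormone that triggers fat release, measured 9.46, 9.44 and 9.31 in WtPE and 8.26, 8.37, 8.59, 8.29 and 8.37 in WtCS (1.03 ± 0.22, limma adjusted p = 0.014). That call was lost without WtPE replicate 1 or 2, and its second, dimmer probeset did not pass (limma adjusted p = 0.477). The fatty acid synthase gene FASN2 fell by 1.26 ± 0.32, a call lost without any of 6 of the 8 arrays. In fatty acid oxidation (23 genes, median 0.30), the acyl-CoA synthetase genes bgm and hll were higher, by 1.21 ± 0.25 and 1.80 ± 0.43, and the peroxisomal oxidase Acox3 was lower, by 1.0 ± 0.18. Of the 3, bgm passed in both runs and Acox3 was called with each array left out, while bgm lost its call without WtPE replicate 1 or 3 and hll without any WtPE array or WtCS replicate 4. Men-b, a mitochondrial malic enzyme that links the citric acid cycle to pyruvate, measured 7.19, 7.29 and 7.09 in WtPE and 8.68, 8.57, 7.99, 8.64 and 8.64 in WtCS (-1.31 ± 0.21, limma adjusted p = 0.00156, both runs). Trehalase, Treh, which splits the blood sugar of insects, was 0.77 ± 0.16 lower and lost its call without WtPE replicate 2 or 3.

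Odorant-binding proteins are small secreted carriers of lipophilic molecules, best known from antennae. Of 47 measured in these hearts, 4 were lower and 2 higher, 5 of them in both runs, and the median was 0.01. In the Obp57 cluster on arm 2R the members did not move as one. Obp57a fell as given above, Obp57c measured 6.63, 7.15 and 7.67 in WtPE and 10.18, 9.87, 10.19, 10.46 and 10.35 in WtCS (-3.06 ± 0.25, limma adjusted p = 1.96e-06), and Obp57b and Obp57e were 0.26 ± 0.35 higher and 0.01 ± 0.29 lower and did not pass. Obp83cd fell by 2.15 ± 0.35, and the 2 rises were Obp18a, by 1.44 ± 0.20 on an already bright signal, and Obp99d, by 1.26 ± 0.29, the last of which lost its call without WtPE replicate 2 or 3 or WtCS replicate 4. In sei mutants, Obp57a lay between 9.08 and 9.38, near its WtCS level, and in KCNQ mutants at 4.61, 6.42 and 4.76.

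The measured contractile genes had no call in the fit of all arrays. This held for the 25 sarcomere genes (median -0.08) and the 10 measured heart muscle markers, where Hand and Mlc1 differed by 0.06 ± 0.15 and -0.54 ± 0.19. With 4.74% of all genes called, no call among 25 or 10 genes is near the share of all genes. The annotation used named no probeset for 4 other heart muscle markers, tin, Mhc, Act57B and wupA. Myosin heavy chain, the product of Mhc, is thus among the genes not covered. Within run A, 5 sarcomere genes were called higher and 2 lower. The lower pair, bt and sls, which code for giant titin-like proteins of the sarcomere and are also the heart muscle markers called there, differed by -0.99 ± 0.31 and -1.10 ± 0.49 over all arrays without passing. Of 21 potassium channel genes 1 was called, a share near that of all genes (4.74%): the inward rectifier Irk3, at 4.50, 3.92 and 3.00 in WtPE and 2.26, 2.47, 2.08, 2.37 and 2.77 in WtCS (1.42 ± 0.28, limma adjusted p = 0.00886). Irk3 is best known from Malpighian tubules, it stayed dim in all arrays, it passed in neither run alone, and its call was lost without WtPE replicate 1 or 2. Of 19 calcium handling genes, 3 were lower and 1 higher, none in both runs, with a median of -0.28. RyR, the calcium release channel of the sarcoplasmic reticulum, measured 6.00, 6.00 and 5.50 in WtPE and 6.51, 6.71, 6.85, 6.98 and 6.85 in WtCS (-0.95 ± 0.24, limma adjusted p = 0.041). The T-type channel Ca-alpha1T and the channel subunit stj fell by 0.95 ± 0.22 and 1.30 ± 0.31, and the calcineurin subunit CanB2 was 0.60 ± 0.15 higher. These were borderline calls. With 1 array left out at a time, RyR kept its call only without WtCS replicate 1, though it was also called within run A (limma adjusted p = 0.00838), CanB2 was lost without any of 6 arrays, stj without WtPE replicate 2 or 3 or WtCS replicate 3 or 4, and Ca-alpha1T without WtPE replicate 2 or 3 or WtCS replicate 4. Among 17 cardiac transcription factors, tup, the fly Islet gene, fell by 1.07 ± 0.26 and ush, a GATA cofactor, by 0.97 ± 0.20. The call of ush was lost without WtPE replicate 3, and that of tup without any WtPE array or WtCS replicate 1 or 4.

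Of 40 measured proteasome subunits, the test called 4 lower and none higher in WtPE, and 9 lower and none higher within run A. The mean was lower in WtPE for 35 (87.5%, beside 52.5% of all genes) and higher for the other 5, and the median was -0.41, at -0.48 within run A and -0.29 against run B. Prosbeta5, a catalytic subunit, measured 10.92, 11.02 and 10.94 in WtPE and 11.81, 11.78, 11.66, 11.81 and 11.76 in WtCS (-0.81 ± 0.14, limma adjusted p = 0.00324, both runs). Prosbeta4, Prosalpha6 and Rpn6 fell by 0.89 ± 0.23, 0.71 ± 0.17 and 0.62 ± 0.16, each lost without any WtPE array or WtCS replicate 4 or 5, and Prosbeta4 also without WtCS replicate 3. The summed proteasome level was 15.16 to 15.25 in WtPE and 15.62 to 15.83 in WtCS on the log2 scale, without overlap. For ribosomal proteins the median was 0.05 over 41 cytosolic and 0.03 over 69 mitochondrial ones, of which mRpL51 (0.87 ± 0.21) and mRpS25 (0.74 ± 0.18) were called higher. Both lost their calls without any WtPE array or WtCS replicate 4 or 5, and mRpL51 also without WtCS replicate 3.

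Cuticle and stress genes contributed single members. TwdlE, a cuticle protein of the Tweedle family, fell to 5.46, 3.97 and 6.07 in WtPE, against 8.96, 9.31, 8.69, 8.24 and 7.91 in WtCS (-3.46 ± 0.40, limma adjusted p = 6.96e-05, both runs), and Cpr49Ab by 2.47 ± 0.58, a call lost without WtPE replicate 1 or 2 or WtCS replicate 3. The other 100 cuticle genes did not pass. MtnB, a metallothionein that binds heavy metals, measured 9.11, 8.72 and 10.16 in WtPE and 11.43, 11.59, 11.74, 10.67 and 10.99 in WtCS (-1.95 ± 0.40, limma adjusted p = 0.0108) and lost its call without WtPE replicate 1 or 2. The methuselah-like receptor mthl2 was 1.76 ± 0.30 lower over all arrays and passed in both runs. TotB, a stress-induced secreted peptide, was higher at 4.96, 4.86 and 6.36 in WtPE against 2.95, 1.37, 1.96, 2.43 and 1.80 in WtCS (3.29 ± 0.79), with its call lost without any WtPE array or WtCS replicate 5. The immune lectin lectin-21Ca was 1.25 ± 0.27 higher, lost without WtPE replicate 1 or 2, and the neprilysin-like peptidase Nepl18 was 1.17 ± 0.28 higher, lost without WtPE replicate 2 or 3 or WtCS replicate 3 or 4.

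Markers of other cell types were examined because a hand-dissected heart can hold some of them. The hemocyte receptor NimC1, through which blood cells take up bacteria, measured 10.44, 10.38 and 10.48 in WtPE and 7.54, 6.56, 7.58, 6.86 and 6.20 in WtCS (3.48 ± 0.26, limma adjusted p = 7.47e-07, both runs). It lay between 10.10 and 10.38 in both mutants, so WtCS stood apart. Hemolectin, Hml, the standard hemocyte marker, moved the other way, at 9.22, 9.10 and 8.83 in WtPE and 10.13, 10.06, 10.84, 10.88 and 10.68 in WtCS (-1.47 ± 0.26, limma adjusted p = 0.00373). Of the 8 hemocyte markers 6 had lower WtPE means, with a median of -0.83, and their summed level was 12.75 to 12.81 in WtPE and 12.72 to 13.34 in WtCS. AkhR was the only one of 8 fat body markers called, and that list overlaps the lipid list. Of the 8, 3 had a lower WtPE mean. Among these, Lsp2 was lower by more than AkhR was higher (-2.92 ± 1.42) but did not pass (limma adjusted p = 0.356). Within run A, 2 of the 8 were called higher and 1, Lsp2, lower (37.5%, beside 15.2% of all genes). The summed level of the fat body markers was 13.17 to 13.48 in WtPE and 12.62 to 13.53 in WtCS. None of 7 nephrocyte, 8 gut or 3 tracheal markers was called, which is near the share of all genes (4.74%) for lists so short. Within run A, 1 nephrocyte marker was called higher and 2 lower (42.9%, beside 15.2% of all genes), and no gut or tracheal marker was called. Of 9 neuronal markers 1 was called, Ace, the acetylcholinesterase, at 2.46, 2.32 and 2.66 in WtPE and 5.76, 6.16, 4.30, 4.87 and 3.65 in WtCS (-2.47 ± 0.48, limma adjusted p = 0.00787, both runs). The pan-neuronal genes elav and nSyb did not pass (-0.36 ± 0.32 and -0.44 ± 0.24).

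Of 11 markers of testis and accessory gland, 10 had a higher mean in WtPE, with a median of 1.38, 2.68 within run A and 0.45 against run B, and none passed. Their summed level was 9.42 to 10.84 in WtPE and 6.96 to 9.53 in WtCS. Of genes singled out after their values were seen, the seminal fluid genes Acp98AB, BG642312 and Sfp26Ad were called higher, and Acp98AB measured 9.11, 9.67 and 6.12 in WtPE and 5.41, 5.98, 3.63, 3.72 and 4.72 in WtCS (3.60 ± 0.94, limma adjusted p = 0.0437). WtPE replicate 3 was far below the other WtPE arrays in all 3, and none passed within run A or against run B. All 10 ovary markers had a lower WtPE mean, with a median of -1.15, -1.51 within run A and 0.18 against run B, and a summed level of 9.17 to 10.12 in WtPE and 8.87 to 11.86 in WtCS. Of these, bam, a germline differentiation gene, was called, at 2.47, 2.20 and 2.53 in WtPE and 4.96, 4.72, 3.71, 4.58 and 3.90 in WtCS (-1.98 ± 0.27, limma adjusted p = 0.000425, both runs). The female-enriched yolk protein genes Yp1, Yp2 and Yp3 were bright in both lines and differed by -0.27 ± 0.21, -0.51 ± 0.19 and -0.25 ± 0.19. The summed level of the 4 female markers was 14.01 to 14.64 in WtPE and 14.57 to 14.97 in WtCS. The part of carried-over reproductive tissue in the values of yellow-g, bam and the seminal fluid genes was not tested.

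Along the genome the calls were spread over all major arms. Only probesets with 1 symbol were counted here, of which 612 of 13647 were called over all arms. The percent of them called was 5.24 on 2L, 4.79 on 2R, 4.88 on 3L, 4.4 on 3R, 3.66 on the small chromosome 4 and 3.06 on X. On 2L, 81 were higher and 48 lower in WtPE, on X 48 were higher and 19 lower, and on 2R, 3L and 3R the lower calls were more numerous (75, 72 and 81, beside 56, 58 and 69 higher). Of the 20 measured genes nearest to KCNQ, 10 on each side, none was called by limma and none had an unadjusted p under 0.05. With 4.74% of all genes called, a count of 0 among 20 is near the share of all genes. Their log2 differences ran between -0.71 and 0.13, with a lowest adjusted p of 0.477 by limma. Among 11882 pairs of neighbouring measured genes, both members were called in 41, with the same direction in 25 and opposite directions in 16. These counts were not compared with chance. CG33229, lncRNA:CR42862 and CG42846 formed a run of 3 that fell together, as did CG11854, bam and Nup37. The eggshell genes yellow-g and yellow-g2 fell as a pair (-4.27 and -2.0), and the P450 genes Cyp6a8 and Cyp6a21 rose as one (2.16 and 1.07). These pairs were chosen after their values were seen.

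Some genes were read by several probesets. Of the 612 called probesets with 1 symbol, 516 read genes with no other probeset. Of the remaining 96, another probeset of the gene was called the same way for 31, the opposite way for 2 and not at all for 63, which does not show that those probesets differed, since no test compared them. For wb and CTCF, as described above, probesets of the same gene gave both a large rise and no call, and for lncRNA:CR42862 all 3 were called lower.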

How the data were processed

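RNA from 30 pooled hearts per array was hybridised to the GeneChip Drosophila Genome 2.0 array. The authors normalized the scans by RMA in AltAnalyze and checked them with affyQCReport, and the deposited values are linear intensities without detection calls. Here log2 of the intensity was taken and limma 3.58.1 (R 4.3.3) was fitted to all 16 arrays with 4 group means (12 residual degrees of freedom). The contrasts were WtPE minus WtCS and KCNQ minus sei, moderated by eBayes with Benjamini-Hochberg adjustment over 18769 probesets and a threshold of 0.05. The number of arrays limits the precision. The labels call all arrays biological replicates, and nothing states that the pools came from separate cultures, so p-values measure the spread between these arrays.

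Gene symbols came from the platform annotation, updated through RefSeq genes (Release 6 plus ISO1 MT): 13647 probesets had 1 symbol, 402 several and 4720 none. Chromosome arms and gene start positions, also from RefSeq genes, gave the counts per arm and the order of neighbouring genes. Lists took the brightest probeset of each gene. Array runs and sample codes were read from array names in the study's supplementary tables, not from a stated date. The rule for named genes took w, KCNQ and sei, of which sei alone was named in the annotation used, the 12 largest rises and 12 largest falls among called probesets with 1 symbol and no overlap between groups, and, from each list, at most 3 that were called; others are said to be chosen afterwards or complete a count. The lists and the members were chosen with earlier results of these data known. After the values were seen, disp, Scgdelta and fit, none of them called, were taken out of the P450, calcium and lipid lists, to whose functions they do not belong. The fitting steps were tested on simulated data. Alternatives changed the arrays fitted, the run term, the variance prior, the normalization, a filter on dim probesets, the arrays of 1 sample code, a replicate block, the call rule and each array in turn.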

Additional observations from a re-analysis of the deposited data

Results flagged for a closer look

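In 4 of 69 named probesets, 1 WtCS array lay far from the other 4, with a gap that took up more than 0.71 of the whole WtCS range; chance alone gives such a gap in about 1 in 20 groups. WtCS replicate 3 was the highest for Obp99b, at 12.62 on the log2 scale, with a gap of 0.946 of the range. It was also the highest for bgm, at 10.19, with a gap of 0.744, and the lowest for Men-b, at 7.99, with a gap of 0.841. WtCS replicate 5 was the lowest for CG33458, at 6.36, with a gap of 0.727. In each of the 4 genes, the WtCS array in question lay on the same side of all 3 WtPE arrays as the other WtCS arrays.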

How the results depend on the processing

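The count of 689 control differences was 340 with only the 8 control arrays fitted, 2376 within run A, 3606 with run as a covariate, 1190 with arrays of 1 sample code averaged, 1243 at a fold over 2 with an unadjusted p under 0.05, and 412 against the WtCS arrays outside run A, the last chosen after seeing the data. Leaving out 1 array gave 322 to 834. The KCNQ against sei count of 1669 was 3596 with run as a covariate and 2631 with arrays of 1 code averaged, and 683 to 2302 with 1 array left out. The shared count of 276 was 111 with only the arrays of the groups compared fitted, 1838 with a run term, 468 with codes averaged and 960 within run A, and 133 to 380 with 1 array left out. The causes of these shifts were not tested. The other settings kept these counts within 1.5 times. The main fit did not pair samples by replicate number. Deviations of same-numbered WtPE and WtCS arrays correlated at 0.082, 0.0529 and 0.0894. These values were low, yet each WtPE array correlated best with its own number, so a weak pairing was not settled. A replicate block called 728 control differences, 2271 mutant differences and 284 shared ones. Over named probesets and alternatives, none of 1275 values reversed, 1077 kept their side of the threshold and 198 no longer passed. Dim signals have no detection call here, so large folds from values near the low end of the scale are uncertain in size.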
